A study of Mus musculus with 28 samples.

Results

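Colon epithelial organoids of 7 mouse lines were sequenced in culture 1 and again in culture 2, the number that ends each sample label, after treatment with the EtOH vehicle alone. The 14 libraries compared here, 7 of each culture paired by line, are all the EtOH-treated libraries among the 28 of the series. The other 14 libraries came from the same lines after 4-hydroxytamoxifen (4-HT), which switches on the Cre recombinase, and are used here only as a second set of libraries. The study itself compared recombined with vehicle-treated organoids, so the comparison of cultures asks which genes vary between rounds of culture of the same line when no recombination has been induced.

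Every line was of the C57BL/6N strain and carried VillinCreERT2, a tamoxifen-activated Cre driven by the promoter of an intestinal epithelial gene, together with APCflox/flox. Col288 carried these alleles alone (AC). Col290 and Col313 also carried Trp53LSL-R172H/+ (PAC), Col286 and Col291 carried BraffloxV600E/+ (BAC), and Col287 and Col312 carried both (BPAC). There was thus 1 AC line and 2 lines of each other genotype, and no line with wild-type Apc alleles. EtOH was given for 24 h and RNA was taken 3 days later. The study's legends speak of distinct passages, whereas the labels give only the numbers 1 and 2 and number the libraries separately within each, so what the number stands for and the library numbering cannot be told apart. Animal age was not given in the sources used here.

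Colon organoids hold cycling stem and progenitor cells in the crypt-like buds, absorptive colonocytes, and secretory cells that include mucus-producing goblet cells, hormone-producing enteroendocrine cells and chemosensory tuft cells. The balance among them is set by growth factors in the medium and by Wnt and Notch signals. Cultured epithelium also responds to handling: immediate early genes answer growth factors and mechanical disturbance within minutes, NRF2 raises antioxidant genes, metallothioneins follow available zinc, and mitochondrial transcripts depend on both the mitochondrial genome and nuclear genes.

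The labels held up in the EtOH libraries. Trp53, which has 1 silenced copy in lines with the LSL allele, stood at 47.2 to 61.8 CPM (counts scaled to the depth of the library) in the 8 libraries of those lines and at 92.5 to 112 CPM in the 6 others. The X-inactivation transcript Xist and the Y-linked gene Ddx3y gave the same call in both cultures of 7 of 7 lines. Epcam, Cdh1 and Vil1, which define the epithelium, did not pass the test between cultures (log2 differences of -0.12, 0.17 and -0.03). Cdx2 is described below with the epithelial identity list, of which 5 of 17 genes fell and 1 rose. Of the markers of other cell types, Ptprc, Col1a1, Pdgfra and Cdh5 were not among the genes listed. The summed fibroblast list, of which 4 of 17 genes were listed, ranged over 21.5 to 56.7 CPM in culture 1 and 28.4 to 57.2 in culture 2. This sum was higher in culture 2 in 5 of 7 lines (median ratio 1.34). Its 1 called gene, Vim, fell (log2 difference -0.61), a call lost when any 1 line other than Col312 was left out. The immune list (3 of 16 genes) ranged over 3.39 to 5.14 and 2.39 to 6.22 CPM, and the endothelial and neural list (3 of 12 genes) over 2.16 to 3.93 and 2.07 to 6.31 CPM. Library totals were 20577276 to 29135706 counts and did not separate the cultures.

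Culture 2 differed from culture 1 in 2107 of 13519 genes tested (15.6%) at an adjusted p under 0.01, of which 1268 (9.38%) were higher in culture 2 and 839 (6.21%) lower. The test was edgeR's quasi-likelihood test with line as a block and Benjamini-Hochberg adjustment over all genes. It gave every adjusted p below, and every difference is its log2 fold change of culture 2 against culture 1 with its standard error (SE). Without the block it called 1259 genes, 769 higher and 490 lower, so setting each library against its own line matters to the count. Leaving out 1 line at a time gave 1103 to 2210 calls, with the fewest without Col291. It gave 1299 without Col288, 1290 without Col290 and 1328 without Col286. Scaling by library size alone gave 1000 higher and 1144 lower, so 46.6% of calls were higher instead of 60.2%, although the median of all genes moved by only -0.04. In 803 genes (5.94%) the range of CPM over the 7 libraries of culture 1 did not overlap that of culture 2.

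In the plot of the first 2 principal components every line moved the same way from culture 1 to culture 2. PC1 held 34.6% of the variance and PC2 14.2%. The lines stayed apart as well: the medians over genes, each taken separately, were 48.7% of the variance in log2 CPM for line, 16.1% for culture number and 25.4% for the rest. Deviations from the culture means correlated across genes between the 2 libraries of a line at 0.0995 (Col313) to 0.603, and a library's own partner was the closest library of the other culture in 6 of 7 lines.

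**Figure D1:**
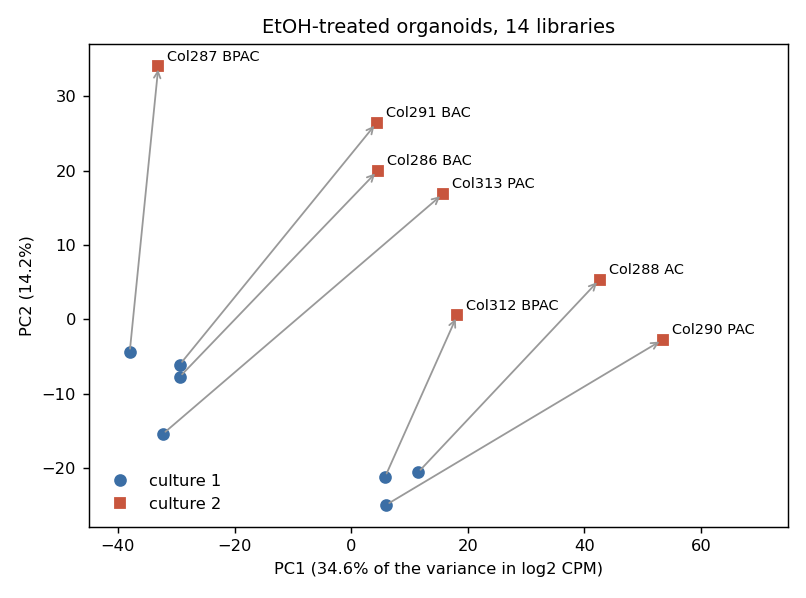
First 2 principal components of log2 CPM in the 14 EtOH-treated libraries, with PC1 (34.6% of the variance) on the x axis and PC2 (14.2%) on the y axis. Blue circles are culture 1, red squares are culture 2, and each grey arrow joins the libraries of 1 line; all 7 arrows point up and to the right, with Col287 moving least along PC1.

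RNA classes shifted between the cultures before any single pathway is considered. Transcripts of the mitochondrial genome took up 1.20 to 2.51% of counts in culture 1 (median 1.59%) and 1.19 to 6.43% in culture 2 (median 3.46%), higher in culture 2 in 6 of 7 lines, the exception being Col287. CT010467.1, a locus annotated as ribosomal RNA, took 0.202 to 0.460% of counts in culture 1 and 0.559 to 1.85% in culture 2, higher in 7 of 7 lines. The 20 most abundant genes together took 9.58 to 12.3% and 11.2 to 21.7%. These shares moved with the culture number in nearly every line, so their part in the differences of other genes and that of the culture cannot be told apart. Culture number held 0.908 of the within-line variance of CT010467.1 (R squared), and an edgeR fit with that gene as a covariate, added after the values had been seen, called 0 genes, with 1330 at an unadjusted p under 0.05.

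CT010467.1 stood at 1941, 2920 and 4454 CPM (lowest, median and highest) in culture 1 and at 5402, 7823 and 19960 CPM in culture 2. The ranges did not overlap, and the highest value was that of Col290. The log2 difference was 1.51 ± 0.15 (SE, 7 lines, adjusted p = 5.11e-05). Counts assigned to Lars2, the gene of the mitochondrial leucyl-tRNA synthetase, rose by 0.92 ± 0.15 (adjusted p = 0.000859) in 6 of 7 lines. They ranged over 6182 to 15466 CPM in culture 1 and 10329 to 42342 CPM in culture 2. The line difference of Lars2 was smallest in Col312 (-0.02) and largest in Col290 (1.68). Those of CT010467.1 were smallest and largest in the same lines (0.69 and 2.44). A rise of Lars2 messenger RNA apart from the rRNA locus was not tested.

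Of the 12 mitochondrially encoded genes listed, 5 rose and none fell (41.7% called), with a median log2 difference of 0.53 beside -0.0059 over all genes. The number of rises ran from 4 to 8 as 1 line was left out, with 8 without Col312. Under an offset for GC content and transcript length, described below, 5 rose and 1 fell and the median was 0.29. The 12S rRNA mt-Rnr1 rose the most among them, by 1.89 ± 0.21 (adjusted p = 8.27e-05), from 169 to 393 CPM in culture 1 to 315 to 2633 CPM in culture 2. It was higher in 7 of 7 lines, and the ranges overlapped through Col287 alone, whose culture 2 library was the lowest of its culture. The 16S rRNA mt-Rnr2 rose by 1.27 ± 0.22 (adjusted p = 0.00131), from a median of 5224 to 14122 CPM. In Col287 its log2 CPM differed by -0.25, against 0.76 to 2.00 in the other 6 lines.

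The messenger RNAs of the mitochondrial genome were less uniform. mt-Co1, a catalytic subunit of complex IV, rose by 0.88 ± 0.14 (adjusted p = 0.000855), from a median of 4155 CPM to 8566 CPM. mt-Nd2 of complex I rose by 0.87 ± 0.16 (adjusted p = 0.00161) and mt-Nd1 by 0.70 ± 0.15 (adjusted p = 0.00466). The call of mt-Nd1 ended without Col286, Col288, Col290, Col291 or Col313. mt-Nd4 (0.55), mt-Cytb (0.51), mt-Nd5 (0.44) and mt-Nd6 (0.38) did not pass the test, and neither did mt-Co2 (-0.20), mt-Co3 (-0.21) and mt-Atp6 (-0.04). Under the offset mt-Atp6 fell (-0.40, adjusted p = 0.0054). These last 3 had medians of only 5.82 to 20.1 CPM. Near-identical copies of part of the mitochondrial genome lie in the nucleus, and 100% of the 31-base words of mt-Co2, 99.9% of those of mt-Co3 and 99.5% of those of mt-Atp6 also occur in nuclear transcripts, so their counts are uncertain. The same holds for 63.9% of mt-Co1 and 62.8% of mt-Nd4, against 0% of mt-Rnr1 and mt-Nd1, 2.71% of mt-Rnr2 and 13.5% of mt-Nd2.

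**Figure D2:**
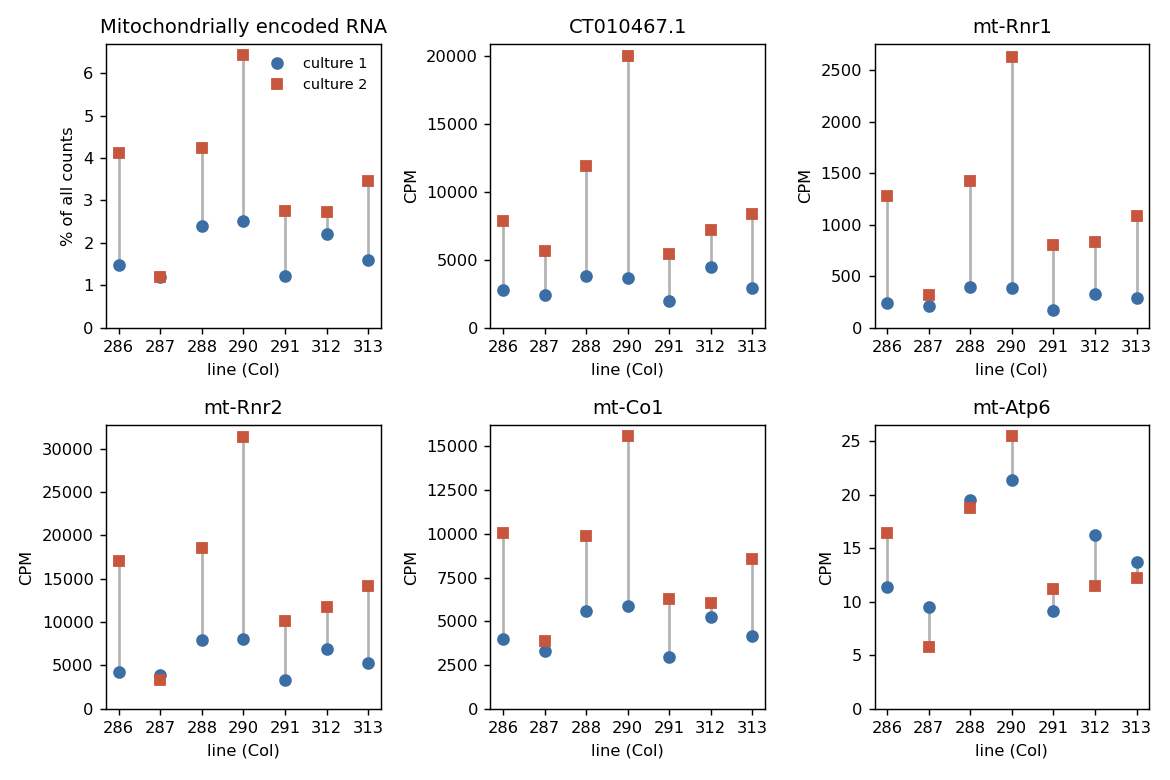
Share of counts from the mitochondrial genome (% of all counts) and CPM of CT010467.1, mt-Rnr1, mt-Rnr2, mt-Co1 and mt-Atp6 in each of the 7 lines, with lines on the x axis, culture 1 as blue circles and culture 2 as red squares joined by a grey bar. CT010467.1 was higher in culture 2 in all 7 lines, Col290 reached the highest value in every panel, and Col287 changed little in the mitochondrial share; mt-Atp6 went up in some lines and down in others.

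The calls also followed the length and base composition of the transcripts. Of the 2666 genes with the longest transcripts, 27.7% were higher and 1.28% lower in culture 2, with a median log2 difference of 0.20, whereas of the 2667 with the shortest 3.41% were higher and 10.3% lower, with a median of -0.11. Of the 2667 genes with the lowest GC content, 23.2% were higher and 1.31% lower. Of the 2667 with the highest, 1.76% were higher and 13.2% lower. Classes of largely unspliced transcripts moved with them: 47 of 212 TEC genes (unspliced transcripts awaiting experimental evidence) and 10 of 39 sense intronic genes rose and none fell, beside 9.38% of all genes, with medians of 0.75 and 0.83. An offset that removed the trend with GC and length from each library left 1240 calls, 616 higher and 624 lower, and 34.9% of the calls made without it. Under it 25 TEC and 3 sense intronic genes rose, with medians of 0.59 and 0.55. The number of calls under this offset is therefore given with the gene lists below. Whether the trend arose in the RNA, the libraries or the cells was not tested.

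**Figure D3:**
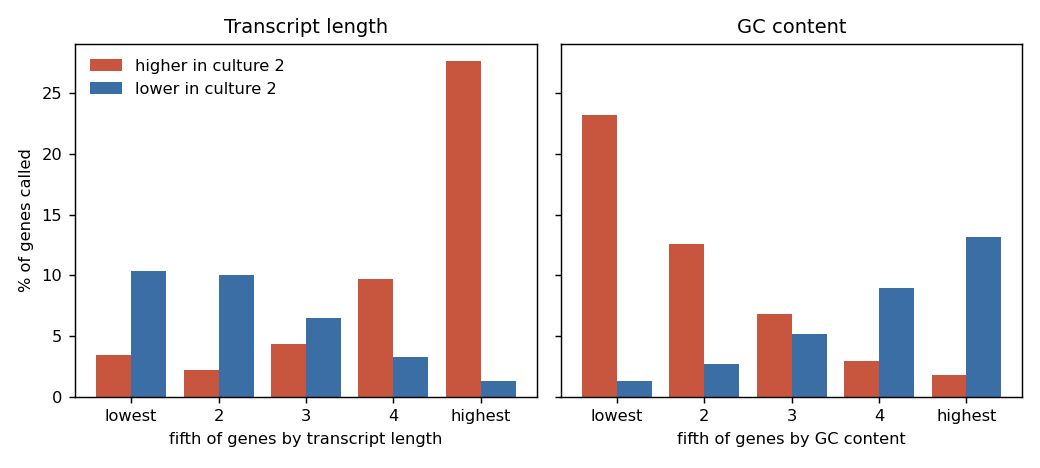
Percent of genes called higher (red) or lower (blue) in culture 2 (y axis) in each of 5 bins of about equal size by the length of the longest transcript (left) and by its GC content (right), from lowest to highest on the x axis. Higher calls rise from 3.41% to 27.7% with length and fall from 23.2% to 1.76% with GC, and lower calls go the opposite way.

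Intestinal stem cell genes were not called between the cultures of EtOH-treated organoids, and 5 proliferation genes rose. Of 26 stem cell genes 0 passed the test by edgeR (7 at an unadjusted p under 0.05, 0 by limma-voom and 1 by DESeq2), with a median log2 difference of 0.10. Lgr5, which encodes a receptor for R-spondins, marks crypt base stem cells. It stood at 12.7, 18.3 and 34.6 CPM in culture 1 and 13.7, 25.1 and 35 CPM in culture 2, a difference of 0.46 ± 0.16 (adjusted p = 0.0502). Its 7 line differences ran from -0.53 in Col312 to 1.10 in Col313, so the lines did not share a direction. Ascl2, a transcription factor of the same cells, differed by 0.06 ± 0.15 (adjusted p = 0.797). Leaving out 1 line gave 0 to 2 calls in the list, the 2 without Col287 or Col312, and the offset gave 0.

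Of 32 proliferation genes 5 rose and none fell (15.6% called, the same share as of all genes), although the median of the list was -0.11. The 5 were Ccne2 (0.52 ± 0.10, adjusted p = 0.00296), Hells (0.40), Top2a (0.38), Mki67 (0.32) and Cenpf (0.31), which act in S phase entry, chromatin remodelling, DNA decatenation, the chromosome periphery and the kinetochore. Mki67 stood at 86.4, 104 and 121 CPM and then at 108, 119 and 155 CPM. All 5 calls ended under the offset for GC and length, where the list held 1 call, and the list held 0 calls without Col288 or Col290 and 3 rises and 3 falls without Col313. Each of the 5 calls ended without Col288 and without Col290, all but that of Top2a without Col286, and those of Hells and Cenpf also without Col291 or Col313. Apc, the floxed gene of every line, rose by 0.42 ± 0.07 (adjusted p = 0.00108), but differed by 0.08 (adjusted p = 0.35) under the offset.

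**Figure D4:**
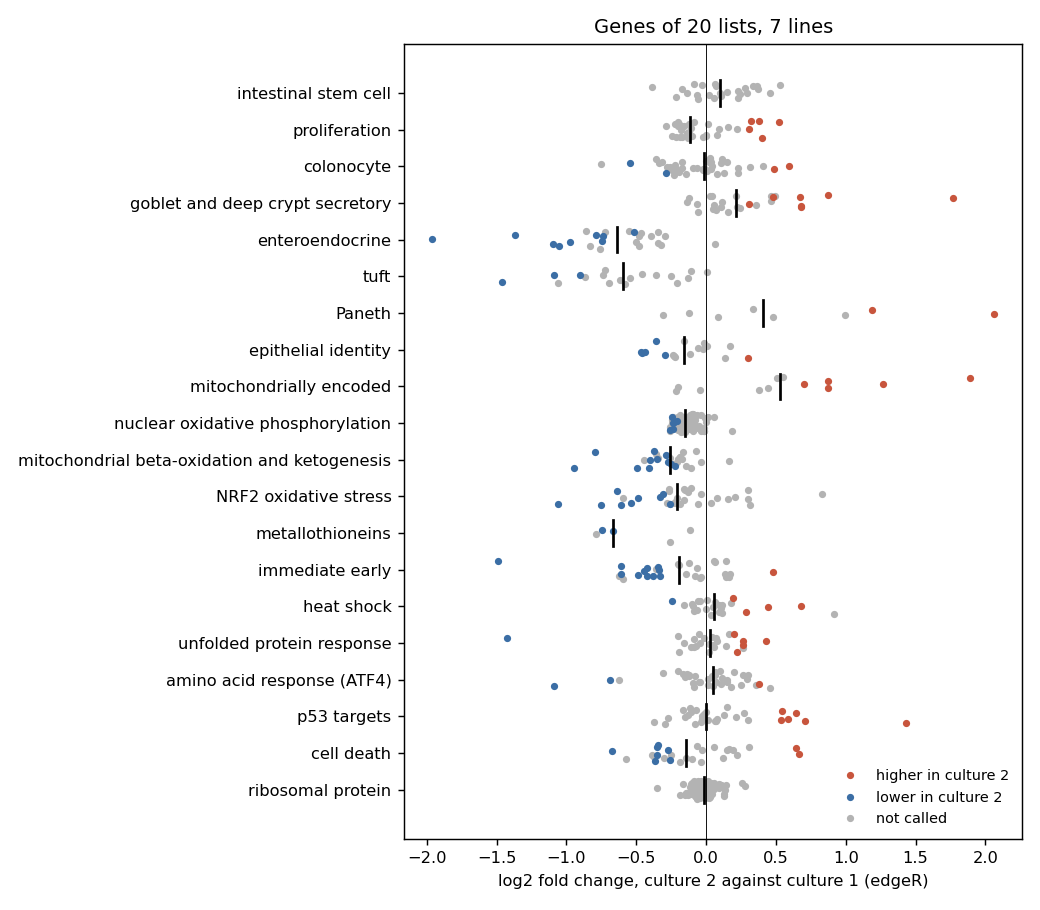
Log2 fold change of culture 2 against culture 1 by edgeR (x axis) for each measured gene of 20 gene lists (y axis), with genes at an adjusted p under 0.01 in red (higher) or blue (lower), other genes in grey and the list's median as a black bar. Enteroendocrine genes lie almost wholly to the left with a median of -0.64 and mitochondrially encoded genes mostly to the right with a median of 0.53, while ribosomal protein genes (median -0.02) hold no called gene.

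The calls among enteroendocrine genes were all falls. Of the 24 measured, 9 fell and none rose (37.5% called), 15 did not pass the test, 1 had a positive difference, and the median was -0.64. Hormone and peptide genes of colonic L cells and their relatives led the list. Pyy, the appetite-suppressing peptide YY, stood at 82.2, 285 and 433 CPM in culture 1 and at 24.9, 114 and 306 CPM in culture 2, a fall of 2.07-fold (log2 difference -1.05 ± 0.15, adjusted p = 0.000361). The ranges overlapped because the lines differ widely, yet each of 7 lines was lower in culture 2, by -0.50 in Col287 to -1.87 in Col290. Neurotensin (Nts) fell by 1.96 ± 0.29 on the log2 scale (adjusted p = 0.000543), from a median of 30.7 to 6.96 CPM. Secretin (Sct) fell by 1.37 ± 0.21 (adjusted p = 0.000718), from a median of 22.9 to 7.13 CPM.

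Genes shared by most enteroendocrine cells were among the falls. Chga, a granule protein, stood at 37.3, 115 and 158 CPM in culture 1 and at 30.4, 53.9 and 118 CPM in culture 2 (log2 difference -0.74 ± 0.10, adjusted p = 0.000264). The ranges overlapped, but 7 of 7 lines were lower. Insm1, a transcription factor of endocrine differentiation, differed by -0.78 ± 0.13 (adjusted p = 0.00101) and was lower in 7 of 7 lines. Tph1, which makes serotonin in enterochromaffin cells, differed by -0.97 ± 0.18 (adjusted p = 0.00184) in 6 of 7 lines. Ppy, the pancreatic polypeptide gene and no member of the list, was among the 12 largest falls described below (-1.81 ± 0.20, adjusted p = 8.45e-05). It went from 4.62, 35.4 and 63.7 CPM to 0.769, 8.78 and 25.1 CPM. Every gene named in these sentences on hormones kept its call when any 1 line was left out, and under the offset, under which 8 genes of the list fell. In bulk RNA fewer cells of a type and less RNA per cell cannot be told apart.

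Tuft cell genes had a like median of -0.60 over 18 genes, but 3 fell (16.7% called) and the offset gave 1 fall. Without Col286, Col288, Col290, Col291 or Col313 there was 1 fall as well. Avil, an actin-binding protein of the tuft, stood at 3.31, 4.58 and 5.59 CPM and then at 1.55, 2.29 and 3.65 CPM (-0.91 ± 0.19, adjusted p = 0.00436). Its call ended under the offset (adjusted p = 0.0134) and without Col286, Col290, Col291 or Col313. Gnat3, the taste receptor G protein gustducin, differed by -1.46, with the call lost without Col288. Dclk1, the most used tuft marker, differed by -0.25 ± 0.24 (adjusted p = 0.467), with 3 lines higher and 4 lower.

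The calls among goblet and deep crypt secretory genes were all rises in the EtOH-treated libraries. Of 26 measured, 7 rose and none fell (26.9% called), with a median of 0.22 and 22 positive differences, and the offset also gave 7 calls. Without Col286, Col288, Col290 or Col291 the list held 4 rises. Mptx1, a mucosal pentraxin, rose by 1.77 ± 0.23 (adjusted p = 0.000256), from 0.0665, 1.97 and 7.65 CPM to 0.136, 6.39 and 28.4 CPM. The ranges overlapped, since its level differed by more than an order of magnitude among lines. Fer1l6, a ferlin of membrane fusion, rose by 0.68 ± 0.12 (adjusted p = 0.00163) in 6 of 7 lines. Both kept the call when any 1 line was left out. The secreted mucin Muc2 stood at 479, 498 and 720 CPM and then at 535, 750 and 1073 CPM (0.48 ± 0.11, adjusted p = 0.00795), with Col313 lower by -0.28. Its call ended when any 1 line other than Col313 was left out. Clca1, a protease of the mucus layer, rose by 0.67 ± 0.15 (adjusted p = 0.00526) and lost the call without Col286, Col287, Col288 or Col290. Sval1 rose by 0.88 ± 0.12 (adjusted p = 0.000416), but differed by 0.58 (adjusted p = 0.02) under the offset. Among the 8 Paneth cell genes listed 2 rose, and 1 under the offset. The list held no rise without Col291, 1 without Col286, Col288 or Col313, 3 without Col312, and 1 fall without Col287. Lyz1 (lysozyme) rose by 1.19, with a log2 CPM difference of -0.45 in Col312, and the call was lost without Col291.

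The calls among absorptive colonocyte genes were divided. Of 40 measured, 2 rose and 2 fell (10% called), with a median of -0.01, and the offset gave 1 rise and 1 fall. There was 1 rise and 1 fall without Col286, Col288, Col290 or Col291, 1 rise without Col312 and 1 fall without Col313. Muc3, a membrane mucin of the brush border, rose by 0.59 ± 0.08 (adjusted p = 0.000222), from 197, 278 and 324 CPM to 298, 403 and 641 CPM. Guca2b, the guanylyl cyclase ligand uroguanylin, fell by 0.55 ± 0.11 (adjusted p = 0.00274), from 53.3, 68.4 and 86.9 CPM to 35.4, 45.3 and 62.9 CPM, and was lower in 7 of 7 lines. The ranges of both genes overlapped, and both calls held with any line left out and under the offset. Car1, a carbonic anhydrase of colonocytes, differed by 0.11 (adjusted p = 0.385), and Krt20, a keratin of mature surface cells, by -0.23 (adjusted p = 0.034).

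Of 17 genes that mark epithelial identity 5 fell and 1 rose (35.3% called, median -0.16), but under the offset 1 fell and the median was 0.043. Their summed CPM, in which the abundant keratins weigh most, was lower in culture 2 in 7 of 7 lines, at 30636 to 39008 CPM in culture 1 and 26933 to 32382 in culture 2. The simple-epithelium keratin Krt8 stood at 7679, 9025 and 10806 CPM and then at 5742, 6334 and 7920 CPM (-0.47 ± 0.07, adjusted p = 0.000449). Its partner Krt18 differed by -0.43 ± 0.08 and Krt19 by -0.36 ± 0.07. The intestinal homeobox genes Cdx1 and Cdx2 differed by -0.30 ± 0.05 and -0.46 ± 0.10 (adjusted p = 0.0014 and 0.00466). Krt8 was the 1 gene of the list still called under the offset, where Cdx1 differed by -0.05 and Cdx2 by -0.24. The list held 3 falls without Col291, and its rise was lost without Col286, Col288, Col290 or Col291. The calls of Cdx2 and Krt19 also ended when Col291 was left out, that of Cdx2 without Col287 or Col290 as well and that of Krt19 without Col286.

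The fetal-like and regeneration list held 3 rises and 3 falls among 27 genes (22.2% called, median 0.08), 7 rises without Col287, 5 falls without Col312, and 3 rises and 2 falls under the offset. Scaling by library size alone gave 2 rises and 7 falls. Anxa1, an annexin induced in regenerating epithelium, fell by 0.52 ± 0.09 (adjusted p = 0.00182), from a median of 646 to 441 CPM. The EGF receptor ligand Ereg rose by 0.77 ± 0.12 (adjusted p = 0.000721), from 8.90 to 18.5 CPM, and the gap junction protein Gja1 by 0.74 ± 0.14 (adjusted p = 0.00193), from 9.91 to 15.5 CPM. Ly6a, the most used marker of that state, differed by 0.14 ± 0.09 (adjusted p = 0.268). Anxa1, Ereg and Gja1 were called with any line left out and under the offset.

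Several NRF2 targets and the metallothioneins Mt1 and Mt2 were lower in culture 2. Of 33 NRF2 genes, 9 fell and none rose (27.3% called), with a median of -0.21, and under the offset 8 fell and 1 rose. Without Col287 the list held 10 falls and 4 rises. Osgin1, an oxidative stress-induced growth inhibitor, stood at 55.4, 63.1 and 72.5 CPM in culture 1 and at 27.1, 29.7 and 38.9 CPM in culture 2, so the ranges did not overlap. It differed by -1.06 ± 0.09 (adjusted p = 2.18e-05), a 2.08-fold fall. Gclc, the catalytic subunit of the first step of glutathione synthesis, stood at 393, 435 and 561 CPM and then at 203, 271 and 329 CPM (-0.75 ± 0.08, adjusted p = 7.59e-05), again with no overlap. Carbonyl reductase Cbr3 differed by -0.61 ± 0.06 (adjusted p = 3.69e-05) and the aldo-keto reductase Akr1b8 by -0.64 ± 0.07 (adjusted p = 0.000123).

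The same list held quinone reductase Nqo1 (-0.54 ± 0.10, adjusted p = 0.00205), which stood at 266, 327 and 378 CPM and then at 145, 236 and 265 CPM. Sulfiredoxin Srxn1, which repairs peroxiredoxins, differed by -0.49 ± 0.07 (adjusted p = 0.000357), and Pgd, an enzyme of the pentose phosphate pathway, by -0.31 ± 0.05 (adjusted p = 0.00102). For all 7 of these genes the CPM ranges of the cultures did not overlap, and each kept its call with any line left out and under the offset. The other falls were Ftl1 (-0.33) and Gclm (-0.26), subunits of ferritin and of glutamate-cysteine ligase. Without Col288 or Col291 the list held 7 falls, so Ftl1 and Gclm lost the call there. It held 8 falls without Col286 or Col290. With all lines, 24 genes of the list did not pass the test.

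Of the 5 metallothionein genes listed, which encode small zinc- and copper-binding proteins, 2 fell (40% called, median -0.66), and 3 under the offset. Mt1 stood at 906, 1162 and 1463 CPM in culture 1 and at 517, 731 and 901 CPM in culture 2 (-0.74 ± 0.12, adjusted p = 0.000769). Mt2 stood at 157, 177 and 225 CPM and then at 89.3, 114 and 147 CPM (-0.66 ± 0.11, adjusted p = 0.00113). Neither pair of ranges overlapped, and both calls held with any line left out and under the offset.

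The start-site regions of these genes are shown because members of both lists moved together and each list has a textbook DNA element, the metal response element that MTF1 binds and the antioxidant response element that NRF2 binds. The sequences are RefSeq's, on GRCm38.p6, 250 bases before to 50 after the annotated start on the gene's own strand, with matches to TGCNCNC (Mt1 and Mt2) or TGACNNNGC (Srxn1) on either strand in capitals. The Mt1 window is chr8:94178839-94179138 (+), that of Mt2 is chr8:94172368-94172667 (+) and that of Srxn1 is chr2:152105274-152105573 (+).
Mt1: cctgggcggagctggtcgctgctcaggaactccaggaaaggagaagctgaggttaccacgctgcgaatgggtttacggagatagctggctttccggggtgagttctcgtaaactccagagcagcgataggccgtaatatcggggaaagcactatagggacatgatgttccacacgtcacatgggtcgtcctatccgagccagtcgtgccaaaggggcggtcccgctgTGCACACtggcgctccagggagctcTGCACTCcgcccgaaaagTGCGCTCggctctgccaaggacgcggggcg
Mt2: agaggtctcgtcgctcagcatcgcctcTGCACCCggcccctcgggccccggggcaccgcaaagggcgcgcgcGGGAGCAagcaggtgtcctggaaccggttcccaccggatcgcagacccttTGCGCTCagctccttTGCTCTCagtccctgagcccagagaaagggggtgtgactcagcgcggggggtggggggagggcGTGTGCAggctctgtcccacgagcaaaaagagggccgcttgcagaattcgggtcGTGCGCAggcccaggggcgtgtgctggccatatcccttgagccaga
Srxn1: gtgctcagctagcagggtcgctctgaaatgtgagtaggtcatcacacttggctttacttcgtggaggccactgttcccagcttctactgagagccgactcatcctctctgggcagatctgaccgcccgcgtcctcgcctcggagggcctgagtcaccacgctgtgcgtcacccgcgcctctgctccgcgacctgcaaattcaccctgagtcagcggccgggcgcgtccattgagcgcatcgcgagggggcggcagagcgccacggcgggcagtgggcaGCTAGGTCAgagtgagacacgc
The metal response core had 3 matches in Mt1 and 6 in Mt2, but 51% of 32851 windows of the same length held at least 1. The string TGACNNNGC had 1 match in Srxn1, 0 in the windows of Nqo1, Osgin1, Cbr3 and Akr1b8, and was present in 12.4% of all windows. Only this 1 spelling of the antioxidant response element was searched, so a window without a match may still hold the element. A match is a run of letters and not a measured binding site.

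Immediate early genes are the transient response to growth factors and stress. Of 30 measured, 11 fell and 1 rose (40% called), with a median of -0.20, but the offset gave 4 falls and 2 rises. Leaving out Col291 left 2 falls, Col286 4 and Col290 6. Ier2 stood at 222, 233 and 269 CPM and then at 147, 158 and 173 CPM without overlap (-0.61 ± 0.06, adjusted p = 2.92e-05). The Krüppel-like factor Klf2 differed by -1.49 ± 0.26 (adjusted p = 0.00123) at low levels, with medians of 2.63 and 1.01 CPM. Both kept their calls with any line left out and under the offset.

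The AP-1 and Egr genes depended more on the lines. Egr1 differed by -0.61 ± 0.12 (adjusted p = 0.00282), from a median of 172 to 106 CPM, with the call lost without Col286, Col288, Col290 or Col291 and with Col287 the 1 line that was higher. The AP-1 subunits Jun (-0.38 ± 0.07, adjusted p = 0.00238), Junb (-0.33 ± 0.07, adjusted p = 0.00289) and Fos (-0.42 ± 0.10, adjusted p = 0.00729) were lower in 7 of 7 lines. All 3 lost the call under the offset and without Col291, Junb and Fos also without Col286 or Col290, and Fos without Col288 or Col313. Myc rose by 0.48, but the immediate early list held no rise without Col288, Col290 or Col291.

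Protein folding genes changed in a few members only. Of 24 heat shock genes 4 rose and 1 fell (20.8% called, median 0.05), with 2 rises and no fall without Col288, Col290 or Col291, and 2 rises and 1 fall under the offset. Hsph1, a cytosolic HSP110 chaperone, stood at 29.6, 35.3 and 40.6 CPM and then at 44.4, 46.5 and 52.3 CPM without overlap (0.44 ± 0.06, adjusted p = 0.000291). The HSP90 co-chaperone Chordc1 rose by 0.68 ± 0.09 (adjusted p = 0.000289), but differed by 0.19 (adjusted p = 0.11) under the offset. The stress-inducible Hspa1a differed by 0.05 ± 0.13 (adjusted p = 0.806). Of 26 unfolded protein response genes 5 rose and 1 fell (23.1% called, median 0.03), while the endoplasmic reticulum chaperone Hspa5 differed by -0.05 ± 0.07 (adjusted p = 0.577) and Ddit3, which encodes CHOP, by -0.14 ± 0.16 (adjusted p = 0.555). Scaling by library size alone gave 1 rise and 1 fall in the unfolded protein response list. Leaving out 1 line gave 0 (without Col288) to 4 rises (without Col287) in that list, with no fall unless the line was Col287 or Col312, and the offset gave 2 rises.

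In the ATF4 list 1 of 36 genes rose and 2 fell (8.33% called, median 0.05), and under the offset 6 rose and 1 fell. Without Col287 the list held 3 rises and 4 falls, and without Col312 2 rises and 3 falls. It held 1 fall without Col286, Col288, Col290, Col291 or Col313. Mthfd2, a mitochondrial folate enzyme, rose by 0.38 ± 0.06 (adjusted p = 0.00105). Cebpb, a bZIP factor of acute-phase and integrated stress responses, stood at 33.4, 39.9 and 49.1 CPM and then at 15.7, 19.8 and 23.4 CPM. It fell 2.12-fold without overlap (-1.09 ± 0.10, adjusted p = 2.46e-05), and its line differences ran from -0.77 to -1.53.

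Among 31 p53 target genes 6 rose and none fell (19.4% called), although the median was -0.00 to 2 decimals and the canonical target Cdkn1a, a cell cycle inhibitor, differed by -0.16 ± 0.11 (adjusted p = 0.279). Eda2r, a TNF receptor family member, rose by 1.43 ± 0.18 (adjusted p = 0.000213), from 0.296, 3.00 and 5.57 CPM to 1.62, 7.12 and 14.1 CPM. Zmat3, an RNA-binding protein, rose by 0.65 ± 0.10 (adjusted p = 0.000721) and cyclin G1 (Ccng1) by 0.55 ± 0.08 (adjusted p = 0.000642), each in 7 of 7 lines, whether or not the line carried the silenced Trp53 allele. These 3 were called with any line left out and under the offset, where 5 of the list rose. The list held 4 rises without Col286, Col288, Col290, Col291 or Col313, 1 fall without Col290 or Col312, and 4 rises and 1 fall with scaling by library size alone. Trp53inp1 rose by 0.71 ± 0.09, but differed by 0.36 (adjusted p = 0.024) under the offset. Trp53 itself differed by -0.01 ± 0.07.

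Of 27 cell death genes 7 fell and 2 rose (33.3% called, median -0.14), and the offset gave 3 falls. Mcl1, an anti-apoptotic BCL2 relative, fell by 0.27 ± 0.05 (adjusted p = 0.0019), and Bcl2l14 by 0.36 ± 0.05 (adjusted p = 0.000302). Xiap, a caspase inhibitor, rose by 0.66 ± 0.09 (adjusted p = 0.000271), but differed by 0.18 (adjusted p = 0.14) under the offset. Without Col291 the list held 2 falls and 1 rise, without Col288 5 falls and 1 rise, and without Col290 6 falls and 1 rise.

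Of 76 nuclear oxidative phosphorylation genes 6 fell and none rose (7.89% called), with a median of -0.15. Those described here are Ndufs8 of complex I, Sdhd of complex II, Uqcrc1 and Cyc1 of complex III and Atp5b of the ATP synthase, with differences between -0.26 and -0.23. All 6 of the falls lost the call under the offset (which called 5 other genes of the list), and each lost it without Col286, Col288, Col290, Col291 or Col313. Among 38 genes of mitochondrial biogenesis and quality control 2 rose and 2 fell (10.5% called), and 1 rose and 1 fell under the offset, as without Col288, Col290, Col291 or Col313. Pink1, the kinase that marks damaged mitochondria, differed by -0.38 ± 0.05 (adjusted p = 0.000396) and the inner membrane protease Yme1l1 by 0.34 ± 0.05 (adjusted p = 0.000528), both without overlap, and under the offset they differed by -0.15 and 0.00.

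Fatty acid oxidation held more calls than most lists. Of 28 genes of mitochondrial beta-oxidation and ketogenesis 11 fell and none rose (39.3% called), with a median of -0.26 and 1 positive difference, and the offset gave 4 falls. Acads, the short-chain acyl-CoA dehydrogenase, stood at 227, 298 and 329 CPM and then at 168, 202 and 268 CPM, ranges that overlapped. It differed by -0.50 ± 0.08 (adjusted p = 0.000619) and was lower in 7 of 7 lines, but it differed by -0.26 (adjusted p = 0.013) under the offset. The number of falls was 2 without Col288, Col290 or Col291, 4 without Col286 or Col313, 10 without Col287 and 17 without Col312.

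In fat synthesis, Acaca, the acetyl-CoA carboxylase that commits carbon to fatty acids, rose from 22.5, 26.3 and 28.6 CPM to 29.5, 37.6 and 43.0 CPM without overlap (0.50 ± 0.06, adjusted p = 0.000192), 1 of 3 rises and 1 fall among 34 cholesterol and fatty acid genes (11.8% called, median -0.02). That list held 2 rises under the offset, 3 rises and 4 falls without Col287, 1 rise without Col286, Col288 or Col291, and 2 rises and 5 falls with scaling by library size alone. The fall was Mvk, mevalonate kinase (-0.30 ± 0.05, adjusted p = 0.00122), which differed by -0.10 under the offset. Of 33 hypoxia and glycolysis genes 1, hexokinase 2 (Hk2), was called, and 1 under the offset, while 3 fell without Col287. It stood at 50.4, 64.0 and 78.6 CPM and then at 80.4, 93.1 and 179 CPM without overlap (0.74 ± 0.08, adjusted p = 0.000104), against a median of -0.22 for the list. The 75 ribosomal protein genes held 0 calls by edgeR, limma-voom and DESeq2 (3 at an unadjusted p under 0.05), with a median of -0.02, but 3 rises without Col287. The xenobiotic list held 1 fall of 25, the interferon and antigen presentation list 1 rise and 1 fall of 31, and the list of proximal and distal colon genes 1 rise and 1 fall of 14. Under the offset the first held 1 fall, the next 1 rise and 1 fall, and the last 0 calls. The xenobiotic list held 3 rises without Col287 and 2 falls without Col288. The interferon rise was lost whichever of the 7 lines was left out. The proximal and distal list held 0 calls without Col286, Col288 or Col291, and no rise without Col290.

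**Figure D5:**
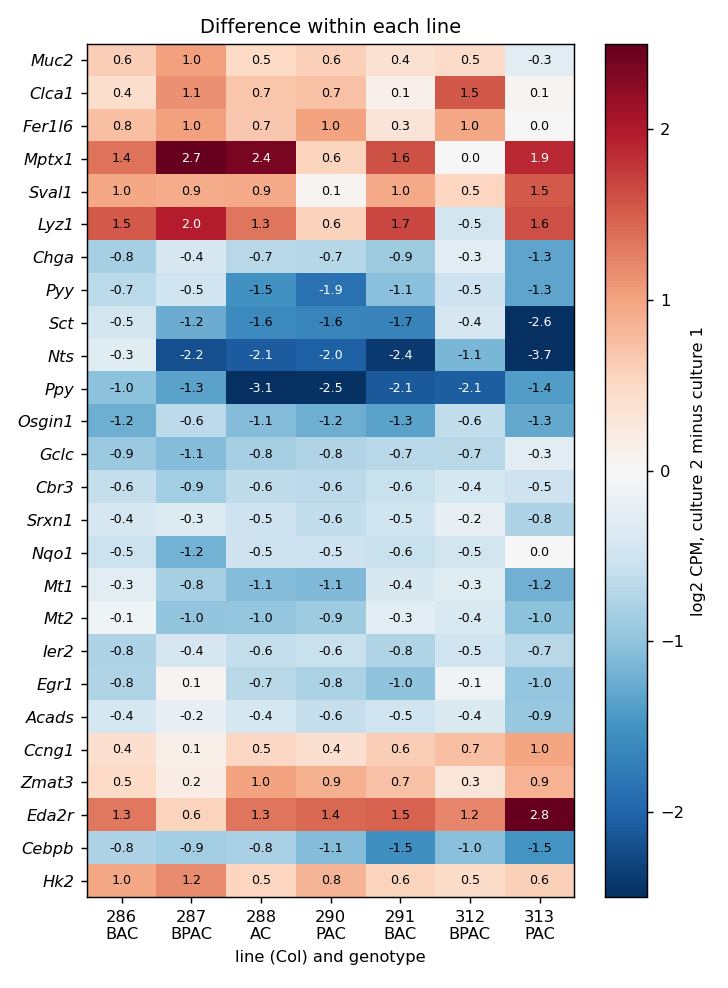
Difference in log2 CPM, culture 2 minus culture 1 (colour, red higher and blue lower in culture 2, number in each cell), for 26 genes (y axis) in each of the 7 lines with their genotype (x axis). Osgin1, Cbr3, Ier2, Cebpb, Pyy and Ppy are blue in every line and Eda2r and Hk2 red in every line, while Nts ranges from -0.3 to -3.7 and Lyz1, Mptx1 and Muc2 differ in size or direction among lines.

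Among called genes with a mean count of at least 50 and one sign in all lines, the largest falls were of genes that do not belong to one pathway. Stag3, a meiotic cohesin subunit, stood at 37.2, 56.1 and 77.7 CPM in culture 1 and at 2.07, 4.03 and 12.8 CPM in culture 2 (-3.55 ± 0.27, adjusted p = 7.07e-06). Dmp1, a matrix phosphoprotein of bone and dentin, fell by 3.42 ± 0.34 (adjusted p = 5.24e-05), from 15.3, 20.4 and 30.3 CPM to 0.639, 1.32 and 8.12 CPM. Tmem44, a transmembrane protein, fell by 3.23 ± 0.14 (adjusted p = 1.09e-07), from 6.2, 9.01 and 14.4 CPM to 0.664, 0.976 and 1.84 CPM. None of these ranges overlapped, and each of 7 lines was lower.

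Dbn1, an actin-binding protein, fell by 2.18 ± 0.14 (adjusted p = 3.04e-06) and the deubiquitinase Zranb1 by 1.52 ± 0.10 (adjusted p = 3.46e-06), from a median of 89.9 to 29.3 CPM, also without overlap. Abi2, of the WAVE actin complex, fell by 1.46 ± 0.22 (adjusted p = 0.00061) from a median of 233 to 73.5 CPM. The processed pseudogene Gm12896 fell by 4.42 ± 0.26 (adjusted p = 1.56e-06), but 194 of its 196 words of 31 bases also occur in Gm12895, so its counts are uncertain. The 12 largest falls further held Nts, Ppy and Klf2, described above, Dlk1, a Notch-like membrane protein (-1.52), and the gasdermin Gsdma (-1.51).

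The 12 largest rises, taken under the same limits, were of a different make-up. They held mt-Rnr1, CT010467.1 and Mptx1, described above, and 3 non-coding entries that lie within the span of other genes, so their reads may be those of Sntg1 (Gm24276, opposite strand), Camk2d (Gm43011, same strand) and Snd1 (Gm37940). Rdx, radixin, which ties actin to the membrane, stood at 8.85, 13.6 and 24.6 CPM and then at 19.0, 41.3 and 68.7 CPM (1.53 ± 0.15, adjusted p = 5.24e-05). Syt14 rose by 1.94 ± 0.37 (adjusted p = 0.00217), the adhesion molecule Sdk1 by 1.48 ± 0.17 (adjusted p = 0.000128) and Dlec1, which overlaps Acaa1b on the other strand, by 1.54 ± 0.17 (adjusted p = 8.45e-05). The line differences of Rdx, Sdk1 and Dlec1 ran close to those of CT010467.1. They were smallest in Col312 (0.75, 0.55 and 0.74, beside 0.69 for CT010467.1) and largest in Col290 (2.33, 2.44 and 2.39, beside 2.44). Whether these genes rose apart from the rRNA locus was not tested. Of the 12 largest rises, the call of Gm24276 ended under the offset (adjusted p = 0.011).

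The remaining 2 were linker histones, Hist1h1d (1.54 ± 0.18, adjusted p = 0.000111) and Hist1h1b (1.52 ± 0.13, adjusted p = 1.41e-05). Hist1h1b stood at 4.55, 6.08 and 8.95 CPM and then at 11.7, 19.1 and 25.6 CPM without overlap. These genes, whose messenger RNAs mostly lack a poly(A) tail, were gathered as a list after their values had been seen. Of 21 replication-dependent histone genes 5 rose and 1 fell (28.6% called, beside 15.6% of all genes), with a median of 0.29. Under the offset 6 rose and 1 fell.

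The same lines after 4-HT gave a second comparison of culture 1 with culture 2, in 6 lines because the labels leave 1 4-HT library of Col291 unnumbered. In 2 of its libraries the markers went against a single line of origin: the culture 1 libraries of Col290 and Col313 held both Xist (27.4 and 23.9 CPM) and Ddx3y (15 and 14 CPM), whereas the EtOH libraries of Col290 held Ddx3y and those of Col313 held Xist. The test called 2127 genes (15.7%), but 83 without both lines, 61 higher and 22 lower. Of the 2107 genes called in EtOH libraries, 1062 were called in the same direction after 4-HT (50.4% of the EtOH and 49.9% of the 4-HT calls) and 2 in the opposite one. The sign was shared by 96.4% of the EtOH calls, beside 76.3% of all genes. Without Col290 and Col313 it was shared by 92.8% beside 72.4%.

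Of the 12 genes with the largest falls, 7 fell after 4-HT as well, namely Gm12896 (-4.22), Stag3 (-3.34), Dmp1 (-3.03), Tmem44 (-2.29), Abi2 (-1.29), Dbn1 (-1.26) and Zranb1 (-1.26). Without Col290 and Col313 all of these but Dbn1 were called. The others did not pass the test: Ppy differed by -1.06, Dlk1 by -0.93, Klf2 by -0.75, Nts by -0.43 and Gsdma by -0.23. Without Col290 and Col313 these differences were -0.74, -0.26, -0.48, 0.21 and -0.026, so that of Nts changed sign. mt-Rnr1 rose by 1.58 (adjusted p = 2e-05), Cebpb fell by 1.15 (adjusted p = 1.4e-05) and Mt1 by 0.47 (adjusted p = 0.0082). Without Col290 and Col313 mt-Rnr1 and Cebpb were called and Mt1 was not (-0.40, adjusted p = 0.114).

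Several lists held other calls after 4-HT than with EtOH. Of the 33 NRF2 genes 4 rose and 2 fell (median -0.03), with -0.08 for Osgin1, -0.06 for Gclc, -0.03 for Cbr3 and 0.08 for Nqo1, none of them called. Goblet and deep crypt secretory genes held 0 rises and 5 falls (median -0.03), beta-oxidation genes 1 rise and 0 falls, and enteroendocrine genes 1 fall (median -0.34, and -0.0049 without Col290 and Col313). Of the stem cell genes 8 fell and 1 rose (median -0.25), of the proliferation genes 11 fell and 2 rose (median -0.17), of the colonocyte genes 11 rose and 1 fell (median 0.33), and of the 75 ribosomal protein genes 31 fell (median -0.23). Metallothioneins held 3 falls, immediate early genes 7 falls and mitochondrially encoded genes 7 rises, in the direction seen with EtOH. Without Col290 and Col313, where 83 genes were called in all, these lists held no calls but 4 mitochondrially encoded rises and 1 NRF2 rise. The difference between the treatments was tested itself as a difference of both contrasts in 6 lines. edgeR called 0 of 13519 genes (0%), with 1585 at an unadjusted p under 0.05 and 0 by limma-voom, and Osgin1 and Gclc stood at an adjusted p of 0.0192.

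A difference of the culture change between lines with and without the unrecombined Braf allele was not detectable with 4 and 3 lines. The interaction called 0 genes (0%) by edgeR and 0 by limma-voom, with 1252 at an unadjusted p under 0.05, and 3 without Col291. Braf itself stood at 19.4, 22.8 and 25.9 CPM and then at 18.7, 22.8 and 25.3 CPM (-0.02 ± 0.07, adjusted p = 0.867), although the offset put it at -0.36 (adjusted p = 0.0043).

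As a measure without a test, the size of the difference within a line was taken as the median over 7 lines of the absolute log2 CPM difference of a gene. Over all genes its median was 0.244. By list it was 0.115 for ribosomal protein genes, 0.138 for the unfolded protein response, 0.139 for mitochondrial biogenesis, 0.204 for proliferation and 0.227 for colonocyte genes. It was 0.297 for stem cell genes, 0.346 for goblet, 0.660 for mitochondrially encoded, 0.690 for enteroendocrine, 0.751 for tuft and 0.766 for metallothionein genes. The part of the variance that went with culture number, 16.1% for the median of all genes, was 58.5% for 4 ribosomal RNA loci, gathered after their values had been seen, and 51.3% for metallothioneins. It was 36.3% for beta-oxidation, 33.5% for epithelial identity, 31.3% for cell death, 30.3% for NRF2, 29.3% for immediate early and 22.3% for proliferation genes. Among the lowest were stem cell (5.25%), colonocyte (4.94%), cholesterol and fatty acid synthesis (4.41%) and ribosomal protein genes (1.53%).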

How the data were processed

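RNA was sequenced from EtOH- and 4-HT-treated colon organoids of 7 lines. The authors deposited a table of raw counts per gene for 28 libraries. The submitters' processing notes name Trimmomatic 0.39, STAR 2.5.2b and GRCm38/mm10. The counting program, annotation and strand setting are not given in the sources used here, so reads of overlapping and antisense genes cannot be told apart. All 13519 deposited genes entered every test, and 13479 had a symbol, length and GC content in GENCODE vM21. TMM-scaled counts were fitted with edgeR 4.0.16 (R 4.3.3) as line plus culture number, quasi-likelihood test, Benjamini-Hochberg adjusted p under 0.01. Line is the donor, which pairs the numbered cultures (correlations of deviations 0.0995 to 0.603). limma 3.58.1 and DESeq2 1.42.0 were alternatives. CPM are TMM-scaled, and log2 CPM used a prior count of 2. Named genes were the 12 largest rises and falls (mean count of at least 50, one sign in all lines), at most 6 called genes per list, and a set of usual markers. Lars2, Gm26917, Sox17, Nppc, Gm43567, Myc, Ftl1, Gclm and the genes most variable between lines were named after their values were seen. The members and lists were chosen with earlier results of these data known. Scripts were tested on simulated data. No label says that the libraries of a culture are independent beyond the line, so p-values measure the spread among these 7 pairs. Some genes of the lists are counted but not reported by name here.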

Additional observations from a re-analysis of the deposited data

Results flagged for a closer look

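Of 116 genes named, 8 had 1 line whose log2 CPM difference between cultures stood apart from the other 6 by Dixon's criterion at 95%, a share that chance alone gives in about 1 of 20. The values of the line that stood apart were -3.25 for Gsdma in Col290, -3.79 for Tmem44 in Col312 and 2.81 for Eda2r in Col313, each in the direction of the other lines. They were -1.17 for Anxa1 in Col287, -0.52 for Bcl2l14 in Col286 and -0.14 for Cdx1 in Col287, also in the shared direction. Ly6a in Col287 (-0.50) and Ccne2 in Col312 (-0.21) went against it. Tests of a difference between treatments or by Braf allele called 0 genes by edgeR, as given above with the unadjusted counts.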

How the results depend on the processing

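Of 2107 genes called in the EtOH-treated libraries (1268 higher, 839 lower), the fit without the replicate block called 1259 (769 and 490), the GC and length offset with the block 1240 (616 higher, 624 lower), an adjusted p under 0.05 called 4196 (2239 and 1957), and a fold of at least 1.5 in addition 581 (426 and 155). Other scalings, filters, thinning and tools called 2018 to 2777 genes. Leaving out 1 line gave 1103 to 2210 calls (758 to 1306 higher, 345 to 904 lower). An alternative chosen after seeing the data, the rRNA gene as a covariate with the block, called 0 (0 higher, 0 lower), with 1330 at an unadjusted p under 0.05. Its covariate and the culture number cannot be told apart. Another, nuclear protein-coding genes without Lars2, called 1864. Of the 2127 genes called after 4-HT, 83 (61 higher, 22 lower) were called without Col290 and Col313, 499 (359 and 140) without the replicate block, and 822 to 2210 (568 to 1259 higher, 254 to 951 lower) with 1 line left out. The Braf allele interaction called 0 to 3 genes with 1 line left out (0 to 3 higher), the 3 without Col291. Among 97 called genes named in the text, limma-voom, filterByExpr and thinning left all 97 called, library size alone 95, DESeq2 94, the offset 69 and the fit without the block 50. The differences that changed sign were those of Cenpf (-0.037), Trp53 (0.12), Cdkn1a (0.023), Hells (-0.013) and mt-Nd6 (-0.097) with the offset, mt-Atp6 without the replicate block (0.0011), Trp53 over nuclear protein-coding genes without Lars2 (0.0038), and with 1 line left out Ddit3 (-0.23 to 0.014, turned without Col313), Hspa1a (-0.055 to 0.096, turned without Col313), Braf (-0.060 to 0.0076, turned without Col312 or Col313), Ascl2 (-0.10 to 0.15, turned without Col313), Trp53 (-0.071 to 0.028, turned without Col286 or Col291 or Col312) and mt-Atp6 (-0.14 to 0.060, turned without Col287 or Col312). With the rRNA covariate those of Cenpf (-0.066), Lgr5 (-0.087), Avil (0.55), Ddit3 (0.066), Pyy (0.26), Ly6a (-0.090), Cdkn1a (0.18), Gm26917 (-0.35), Egr1 (0.11), Dclk1 (0.71), Ccne2 (-0.19), Sdk1 (-0.17), Mki67 (-0.098), Ascl2 (-0.39), Klf2 (0.037), Lars2 (-0.48), mt-Rnr2 (-0.053), mt-Nd1 (-0.27), mt-Nd2 (-0.10), mt-Co1 (-0.23), mt-Nd4 (-0.57), mt-Nd5 (-0.43), mt-Nd6 (-0.41) and mt-Cytb (-0.40) changed sign. The cause of these changes was not tested. Genes under 1 CPM rest on the fewest counts, and 7 pairs of libraries limit the rest. The replicate block, which pairs the numbered cultures of a line, changed the direction of no called gene named here.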

Other observations

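A small set of genes was detected in every culture 1 library and was close to absent in most libraries of culture 2. Gm43567, a long intergenic non-coding RNA, had 18 to 73 counts in the 7 EtOH-treated libraries of culture 1 and 1 count in all of culture 2, in Col287. After 4-HT it stood at 0.667 to 1.94 CPM in culture 1 and at 0 in 5 of 6 libraries of culture 2. Sox17, an endoderm transcription factor, stood at 1.73 to 4.49 CPM and then at 0 to 1.24 CPM with EtOH, where Col288 was the highest of culture 2. After 4-HT it stood at 1.82 to 3.79 CPM in culture 1 and at 0.0369 to 0.220 CPM in culture 2. Nppc, the C-type natriuretic peptide, had 14 to 72 counts and then 0 to 4 counts with EtOH. In Col288 Sox17 had 119 counts in culture 1 and still 31 in culture 2 with EtOH. No fold is given for these genes because culture 2 was at or near 0 in most lines. They were named after their values had been seen.

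Other genes differed widely between cultures of some lines and not of others. The tyrosine phosphatase Ptpn5 had the largest SD of the line differences (2.42), with log2 CPM differences of -5.44 in Col313, -4.66 in Col290, -2.92 in Col288 and -1.98 in Col291, against 0.06 to 0.40 in the 3 other lines. Caveolin 1 (Cav1) differed by -3.67 in Col313 and -3.24 in Col290 and by 0.98 in Col287. Igfbp4, of the stem cell list, differed by 3.71 in Col313 and by -1.89 in Col312. Aldh1l1, a folate enzyme, differed by -4.17 in Col290 and by 1.42 in Col288.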
